A study of Homo sapiens with 4 samples.

Results

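The 10 genes described here belong to the BCL2 family. BBC3, which encodes PUMA, was selected on its counts in this same comparison, because it stood higher in LNCaP cells that overexpress ETV5 (ETV5_OE) than in control LNCaP cells. Its level was 3.33 times that of the controls in the fit. The others were named for belonging to the same family and not for their values: the BH3-only genes PMAIP1, BCL2L11, BID and BAD, the executioners BAX and BAK1, and the anti-death genes BCL2, BCL2L1 and MCL1. None of these 9 passed the test, against 0.401% of all genes tested. All 10 members sought by symbol were found among 17902 genes listed, and all 10 were among the 16194 genes tested.

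RNA sequencing was done on 2 libraries labelled ETV5 overexpression and 2 control libraries labelled WT, all of the LNCaP prostate cancer line. LNCaP is an androgen-responsive line from a metastasis. The labels give no vector, clone, day or treatment, and they do not say whether the libraries of a group came from separate cultures. Both ETV5_OE libraries carry names built on one stem. The p-values below thus speak of variation among these 4 libraries alone, and that variation may be technical. The counts of the libraries of a group differed by more than sampling noise, with a chi-square per degree of freedom of 32.7 in ETV5_OE and 43.7 in Control, which does not show whether they came from separate cultures.

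BCL2 family proteins decide whether the outer mitochondrial membrane stays intact. BAX and BAK1 form the pores that release cytochrome c. BCL2, BCL2L1 (BCL-XL) and MCL1 hold them in check, and BH3-only proteins either occupy the groove of the anti-death proteins or engage BAX and BAK1 directly. PUMA and NOXA, the product of PMAIP1, are BH3-only proteins whose genes respond to cell stress, and BCL-XL and MCL1 are the main survival proteins of many epithelial cancers.

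What the 10 genes share in sequence is a short BH3 core, which is shown because it is the segment that BH3-only proteins insert into their partners. The coding bases below come from the principal transcripts of GENCODE release 29 (GRCh38), read 5′ to 3′ on the coding strand. Capitals mark the 18 core bases, which open with a leucine codon and close with a glycine, alanine or serine codon followed by an aspartate codon. BID had 2 stretches of this pattern, of which the later is shown, and every other principal transcript had 1.
BBC3: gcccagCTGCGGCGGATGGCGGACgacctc
PMAIP1: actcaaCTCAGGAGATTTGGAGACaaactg
BCL2L11: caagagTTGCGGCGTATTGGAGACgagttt
BID: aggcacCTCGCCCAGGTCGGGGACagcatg
BAD: cgcgagCTCCGGAGGATGAGTGACgagttt
BAX: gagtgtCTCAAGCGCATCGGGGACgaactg
BAK1: cggcagCTCGCCATCATCGGGGACgacatc
BCL2: ctgaccCTCCGCCAGGCCGGCGACgacttc
BCL2L1: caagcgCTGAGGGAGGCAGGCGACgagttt
MCL1: gagaccTTACGACGGGTTGGGGATggcgtg

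Each stretch lies within 1 coding exon. On the minus strand are those of BBC3 (chr19:47226585-47226614), BID (chr22:17739421-17739450), BAD (chr11:64271628-64271657), BAK1 (chr6:33575393-33575422), BCL2 (chr18:63318355-63318384), BCL2L1 (chr20:31721928-31721957) and MCL1 (chr1:150578871-150578900). On the plus strand are those of PMAIP1 (chr18:59902667-59902696), BCL2L11 (chr2:111150097-111150126) and BAX (chr19:48955781-48955810). The core of BCL2L11 and that of BAD each matched the BBC3 core at 13 of 18 bases, BAX at 12, MCL1 at 11, PMAIP1, BID, BCL2 and BCL2L1 at 10, and BAK1 at 9. Some alternative transcripts of several members did not hold the 30 bases shown. The search took core and flanks together, in frame from the first annotated coding base. A transcript with the core but other flanks, or with an incomplete start, may thus be missed. The 30 bases shown were in frame in 2 of 4 coding transcripts of BBC3, 1 of 2 of PMAIP1, 4 of 11 of BID, 11 of 25 of BCL2L11, 5 of 9 of BAX, 4 of 6 of BAD and 8 of 9 of BCL2L1. All 3 coding transcripts each of BAK1, BCL2 and MCL1 held them. The counts are per gene, so the values below do not separate transcripts with a BH3 core from those without it.

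Depth was 22369062 and 24642392 counts in ETV5_OE replicates 1 and 2, against 30227070 and 20639543 in Control replicates 1 and 2. ETV5 had 534 and 522 counts in ETV5_OE libraries, against 22 and 27 in Control libraries, so both ETV5_OE libraries were far above both controls. Among luminal prostate markers, 10 of 10 were in the table, and their summed level was 6072 and 6700 CPM (counts scaled to library size) in ETV5_OE, against 8305 and 8903 CPM in Control. None of the 10 was called by edgeR, and the median log2 fold change was -0.44. Of the 10, 5 were lower at an unadjusted p under 0.05, against 3.51% of all genes tested. DESeq2 called 3 of the 10 lower, against 104 of the 16194 genes tested. KLK3, which encodes prostate-specific antigen, was 1 of these 3 (log2 fold change -0.67 in edgeR). Of basal markers 0 of 3 were in the table. Of immune markers 1 of 6 was, CD68, a macrophage marker that other cells also express. It had 9.10 and 16.9 CPM in ETV5_OE, against 5.71 and 8.45 CPM in Control, without overlap (log2 fold change 0.89, SE 0.35, edgeR unadjusted p = 0.0391, adjusted p = 0.664), while PTPRC was not among the genes listed. Of endothelial markers 1 of 4 was, VWF, at 7.98 and 5.43 CPM in ETV5_OE and 13.96 and 4.01 CPM in Control, with overlap. Stromal markers (6 of 8 in the table, DCN and LUM not among them) summed to 104 and 15.3 CPM in ETV5_OE, against 22.4 and 18.9 CPM in Control, so ETV5_OE replicate 1 stood apart. The part of these marker levels in the results below was not tested. In such bulk samples, fewer cells of a type and less RNA per cell cannot be told apart.

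Levels of different genes are compared per transcript length, as the deposited FPKM values (fragments scaled to transcript length and library size). MCL1 had the highest mean of the 10 genes in ETV5_OE, 47.5 ± 1.17 FPKM, and also in Control, 53.8 ± 2.85 FPKM (SD, n = 2 each). BAD followed in each group, then BCL2L1, PMAIP1, BAX and BAK1. BCL2 was the lowest in each group, at 1.40 ± 0.0704 FPKM in ETV5_OE and 2.56 ± 0.0320 FPKM in Control. Within that order, BBC3 took position 7 in ETV5_OE, level with BAK1, whose libraries overlapped its own. In Control it took position 9, and its libraries overlapped those of BCL2. The libraries of PMAIP1 and BAX also overlapped in ETV5_OE, as did those of BCL2L1 and PMAIP1 in Control and those of BID and BCL2L11 in each group. The other neighbours in the order did not overlap.

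**Figure D1:**
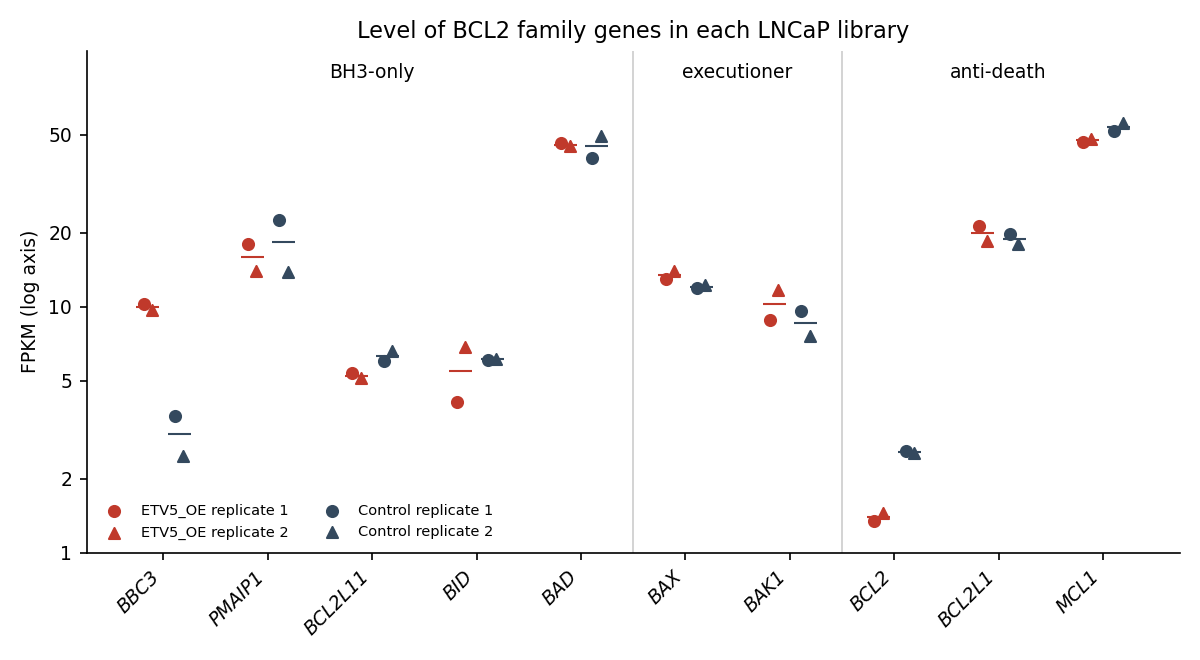
FPKM of the 10 BCL2 family genes in each library on a log axis, ETV5_OE in red and Control in blue, circles for replicate 1, triangles for replicate 2 and bars for the mean of 2 libraries. BBC3 lies at 10.3 and 9.73 FPKM in ETV5_OE and at 3.61 and 2.48 FPKM in Control, while the libraries of PMAIP1, BID, BAD, BAK1 and BCL2L1 overlap between the groups.

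Among the BH3-only genes, BBC3 stood apart from the other 4. BBC3 (gene ID 27113, chromosome 19, 47220824 to 47232860 in GRCh38) had 412 and 453 counts in ETV5_OE libraries, against 199 and 98 counts in Control libraries. That is 18.5 and 18.9 CPM in ETV5_OE and 6.49 and 4.68 CPM in Control. Each ETV5_OE library was above each Control library, and the ETV5_OE pair differed by 1.02-fold, against 1.39-fold for the Control pair. The fitted log2 fold change was 1.74 (SE 0.24). Since this contrast chose BBC3, these values are a description, without a test.

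The BBC3 difference stayed positive over the other settings, but its call was not kept in all. These settings refit the same libraries in which BBC3 was picked, so they describe the difference and give it no further support. Across 14 alternatives the log2 fold change stayed between 1.46 and 2.0. The call was kept in 8 of them and lost in 6: without ETV5_OE replicate 1, without ETV5_OE replicate 2, without robust estimation, with limma-voom, and with limma on log2(FPKM + 1) and on log2(FPKM + 0.1). For BBC3 the authors' deposited table gives a fold of 2.80, computed from quantile-normalized FPKM, with an unadjusted p of 0.0791.

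The BBC3 span also holds a microRNA gene in the table. MIR3191, which lies inside BBC3, was below the filter at 0.0896 and 0.125 CPM in ETV5_OE and 0.130 and 0.0954 CPM in Control. The nearest tested gene, SAE1, which encodes a subunit of the SUMO-activating enzyme, lies 10188 bases away. It had 83.0 and 78.4 CPM in ETV5_OE, against 79.1 and 59.0 CPM in Control, and was not called (log2 fold change 0.22, SE 0.17, edgeR adjusted p = 0.878). Over all 10 members, 18 of 20 nearest listed genes were tested, and none was called by edgeR. At an unadjusted p under 0.05 there was 1, against 7.14% of all genes tested. That 1 was ID1, a helix-loop-helix inhibitor of differentiation beside BCL2L1, at 22.9 and 22.1 CPM in ETV5_OE and 6.10 and 13.5 CPM in Control (edgeR adjusted p = 0.503).

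PMAIP1 encodes NOXA, which binds mainly MCL1. It had 35.9 and 28.6 CPM in ETV5_OE, against 44.5 and 27.2 CPM in Control. The groups overlapped, and the Control pair alone differed by 1.63-fold. Its log2 fold change was -0.16 (SE 0.26, edgeR adjusted p = 0.955), with a 95% interval from 0.591-fold to 1.36-fold, and it was 0.24 without Control replicate 1. DDIT3, which encodes the stress factor CHOP and was picked here for its values, ran in the same order of libraries. Its level was 372 and 222 CPM in ETV5_OE and 526 and 87.1 CPM in Control. What part DDIT3 or cell stress has in the PMAIP1 values was not tested.

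BCL2L11 encodes BIM, a potent activator of BAX and BAK1. It had 24.8 and 22.4 CPM in ETV5_OE, against 28.8 and 29.2 CPM in Control. Each ETV5_OE library was below each Control library, but the difference did not pass (log2 fold change -0.30, SE 0.17, edgeR adjusted p = 0.808; 95% interval from 0.619-fold to 1.07-fold).

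BID links death receptors to mitochondria once caspase-8 cleaves it. It had 9.50 and 16.9 CPM in ETV5_OE, against 13.7 and 14.0 CPM in Control. The ETV5_OE pair differed by 1.77-fold and lay on either side of the Control pair. The log2 fold change was -0.07 (SE 0.29, edgeR adjusted p = 0.983) with all libraries. It was 0.28 without ETV5_OE replicate 1 and -0.55 without ETV5_OE replicate 2.

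BAD, which is silenced by survival kinases through phosphorylation, was the most abundant BH3-only transcript per length. It had 47.8 and 46.4 CPM in ETV5_OE, against 40.3 and 48.7 CPM in Control. The Control libraries lay on either side of the ETV5_OE libraries (log2 fold change 0.08, SE 0.16, edgeR adjusted p = 0.959; -0.05 without Control replicate 1). The span of BAD overlaps that of GPR137, and no strand setting is given in the sources used here, so reads of these genes may not be fully separated.

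Both executioners had positive log2 fold changes, and neither passed the test. BAX had 13.7 and 13.6 CPM in ETV5_OE, against 10.8 and 12.6 CPM in Control, so the ETV5_OE libraries were the higher ones. Its log2 fold change was 0.22 (SE 0.21, edgeR adjusted p = 0.904; 95% interval from 0.837-fold to 1.63-fold). BAK1 had 20.1 and 27.2 CPM in ETV5_OE, against 21.5 and 17.1 CPM in Control. These groups overlapped (log2 fold change 0.29, SE 0.22, edgeR adjusted p = 0.878; 95% interval from 0.860-fold to 1.74-fold).

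Of the anti-death genes, BCL2 gave lower values in the ETV5_OE pair, without overlap. BCL2 (gene ID 596, chromosome 18, 63123346 to 63320090) had 146 and 218 counts in ETV5_OE libraries, against 377 and 242 counts in Control libraries. That is 6.54 and 9.10 CPM in ETV5_OE and 12.3 and 11.5 CPM in Control. The log2 fold change of -0.61 (SE 0.25) did not pass (edgeR unadjusted p = 0.0433, adjusted p = 0.683, range 0.572 to 0.999 over the alternatives). It ranged from -0.87 without ETV5_OE replicate 2 to -0.39 without ETV5_OE replicate 1. In the authors' deposited table BCL2 has a signed fold of -1.46, where a minus sign means lower in ETV5_OE, and an unadjusted p of 0.0371, the smallest of the 10 members there.

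Counts and FPKM gave BCL2 a different spread between the ETV5_OE libraries. They differed by 1.39-fold in CPM and by 1.07-fold in FPKM, at 1.35 and 1.45 FPKM in ETV5_OE and 2.58 and 2.53 FPKM in Control. The transcript length implied by counts, FPKM and depth was 4.83 and 6.10 kb in ETV5_OE and 4.84 and 4.63 kb in Control, so ETV5_OE replicate 2 was the library that stood apart. For BBC3 the implied length was 1.79 and 1.89 kb in ETV5_OE and 1.83 and 1.92 kb in Control, with overlapping groups.

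BCL2L1 and MCL1 had the narrowest intervals of the 10 genes. BCL2L1, whose transcripts encode the anti-death BCL-XL and a shorter pro-death form, had 56.6 and 50.8 CPM in ETV5_OE, against 52.0 and 46.8 CPM in Control. The groups overlapped (log2 fold change 0.12, SE 0.15, edgeR adjusted p = 0.938; 95% interval from 0.853-fold to 1.39-fold). MCL1, a short-lived survival protein, had 193 and 206 CPM in ETV5_OE, against 212 and 227 CPM in Control. Each ETV5_OE library was below each Control library by a small margin (log2 fold change -0.14, SE 0.13, edgeR adjusted p = 0.906; 95% interval from 0.734-fold to 1.12-fold).

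**Figure D2:**
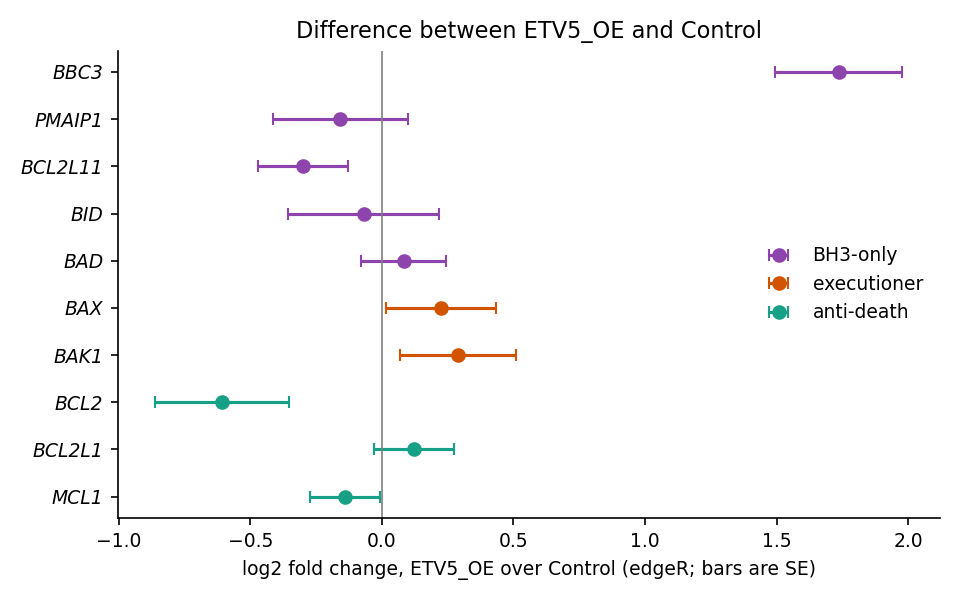
Fitted log2 fold change of ETV5_OE over Control for each gene, with bars of 1 SE from 2 libraries per group, coloured by role. BBC3 is at 1.74, and the other 9 genes lie between -0.61 (BCL2) and 0.29 (BAK1).

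Counted together, 1 of 10 members was called higher and 0 lower by edgeR, against 0.253% and 0.148% of all genes tested. The called member is the one this contrast had picked, so nothing is read from that share. Of the other 9, none was called by edgeR or by DESeq2. At an unadjusted p under 0.05, 0 of these 9 were higher and 1 (BCL2) was lower, against 3.63% and 3.51% of all genes tested, or 7.14% in either direction. Non-overlapping CPM values were seen for 4 of these 9, with BAX above and BCL2L11, BCL2 and MCL1 below, against 18.8% of all genes tested in each direction and 37.6% in all. Their median log2 fold change was -0.07, against 0.00 over all genes tested. For 5 of the 10 genes, PMAIP1, BID, BAD, BAK1 and BCL2L1, the larger fold between libraries of a group exceeded the fold between the groups. These are the same members whose CPM values overlapped, so this adds no further result. Of 16194 genes tested, 10105 overlapped.

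Ratios between members were set out library by library, since FPKM values of different genes can be divided. The summed FPKM of the 7 pro-death genes over that of the 3 anti-death genes was 1.53 and 1.56 in ETV5_OE, against 1.35 and 1.29 in Control. With BBC3 left out, it was 1.38 and 1.41 in ETV5_OE and 1.30 and 1.26 in Control, so the ETV5_OE libraries were still the higher ones. These sums weigh BAD and MCL1 most. They are given as a description, without a test; an exact permutation of 2 against 2 libraries cannot give a two-sided p below 0.333.

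Single pairs differed by more or by less than these sums. BAX over BCL2 was 9.61 and 9.68 in ETV5_OE, against 4.63 and 4.83 in Control. In CPM the same ratio was 2.09 and 1.50 in ETV5_OE and 0.881 and 1.09 in Control. BAX was higher and BCL2 lower in ETV5_OE in both units, each without overlap, so their ratio could not overlap either. Neither gene was called by edgeR. In FPKM, BCL2L11 over MCL1 was 0.115 and 0.106 in ETV5_OE, against 0.116 and 0.119 in Control, a difference of -0.09 on the log2 scale. In CPM the groups overlapped for this ratio, at 0.128 and 0.109 in ETV5_OE and 0.136 and 0.128 in Control. Again in FPKM, BBC3 over BCL2L1 was 0.483 and 0.524 in ETV5_OE and 0.182 and 0.138 in Control. BBC3 over MCL1 was 0.221 and 0.201 in ETV5_OE and 0.0696 and 0.0444 in Control. Since this contrast chose BBC3, the ratios with BBC3 restate its difference, and nothing is read from them.

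**Figure D3:**
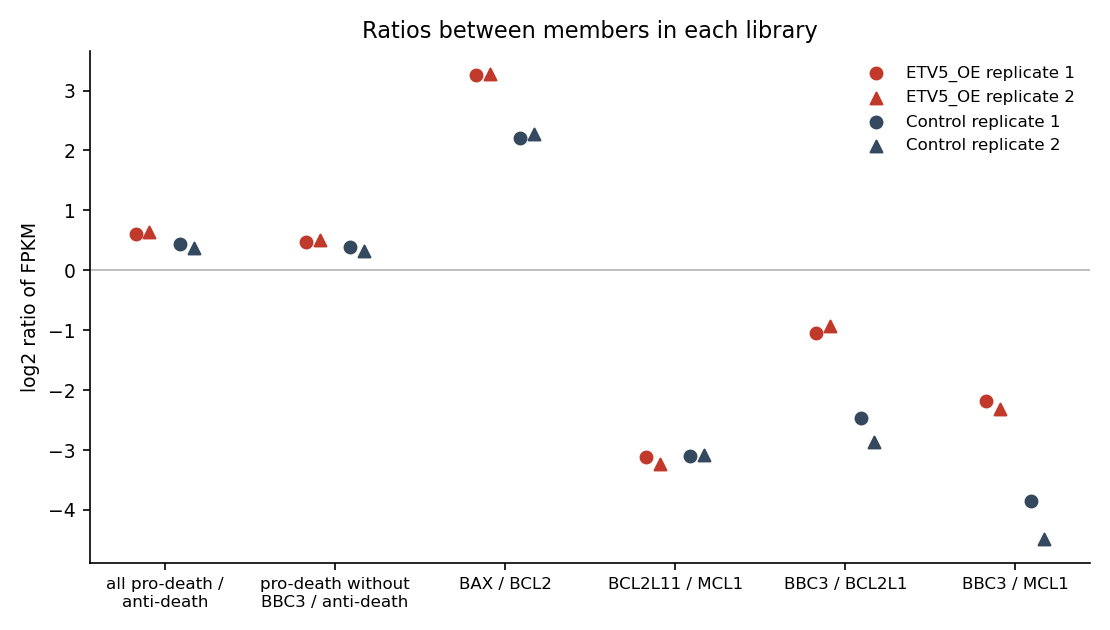
log2 ratios of FPKM between members in each library, ETV5_OE in red left of Control in blue, circles for replicate 1 and triangles for replicate 2. The BAX to BCL2 ratio is near 3.27 in ETV5_OE and 2.24 in Control, and the BCL2L11 to MCL1 ratio is between -3.24 and -3.08 in every library.

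The remaining genes of the family did not differ past the threshold. Of 14 listed, 11 were tested, with a median log2 fold change of -0.05. None was called by edgeR or DESeq2, and none had an unadjusted p under 0.05, against 7.14% of all genes tested. The BH3-only gene BIK had 13.7 and 15.7 CPM in ETV5_OE and 19.8 and 17.6 CPM in Control (log2 fold change -0.35, SE 0.20). BMF, a BH3-only gene tied to the cytoskeleton, had 17.6 and 17.9 CPM in ETV5_OE and 12.2 and 15.7 CPM in Control (0.35, SE 0.21). BCL2L12 had a log2 fold change of 0.43 (SE 0.27). HRK, a BH3-only gene named here for its low level, had 2.78 and 1.29 CPM in ETV5_OE and 2.80 and 1.19 CPM in Control.

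Downstream of the pore, the apoptosome, caspase and release genes had a median log2 fold change of 0.02. Of 17 tested, none was called by edgeR or DESeq2, and none had an unadjusted p under 0.05, against 7.14% of all genes tested. CASP9, the caspase activated on the apoptosome, had 5.29 and 5.64 CPM in ETV5_OE, against 7.60 and 9.11 CPM in Control (log2 fold change -0.61, SE 0.27, edgeR adjusted p = 0.715). VDAC2, a mitochondrial channel that holds BAK1, was at 0.15 (SE 0.15).

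The inhibitors of apoptosis had a median of 0.11 over 6 tested, with none called by edgeR or DESeq2. Only 1 had an unadjusted p under 0.05, against 7.14% of all genes tested. That 1 was BIRC3, which encodes the ubiquitin ligase cIAP2, at 270 and 311 CPM in ETV5_OE, against 179 and 209 CPM in Control. The groups did not overlap (log2 fold change 0.58, SE 0.15, edgeR adjusted p = 0.293). BIRC2, its close paralog, was at 0.27 (SE 0.16). XIAP, which blocks caspases directly, had 77.8 and 155 CPM in ETV5_OE and 137 and 179 CPM in Control, and ETV5_OE replicate 1 was the lowest library. BIRC5 (survivin, a mitotic gene) was called higher in 1 of the 14 alternatives, that without Control replicate 1 (log2 fold change 1.65, edgeR adjusted p = 0.00916), with 61.9 and 53.5 CPM in ETV5_OE and 70.0 and 18.4 CPM in Control.

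The death receptor genes had a median of 0.00 over 13 tested, with none called by edgeR or DESeq2. Just 1, TNFSF10, had an unadjusted p under 0.05, against 7.14% of all genes tested. The ligand TNFSF10 (TRAIL) had 2.73 and 5.59 CPM in ETV5_OE and 8.68 and 6.92 CPM in Control (log2 fold change -0.90, SE 0.38, edgeR adjusted p = 0.688). CASP10, an initiator caspase, was at 0.51 (SE 0.28), and the receptor TNFRSF1A at -0.20 (SE 0.16). CASP8, which acts on BID and was named after its values were known, had 17.2 and 16.5 CPM in ETV5_OE, against 15.4 and 18.3 CPM in Control.

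The next list holds transcription factors reported to bind or regulate BBC3, and also MDM4, an inhibitor of p53. Among its 13 tested genes, none was called by edgeR or DESeq2, and the median was -0.01. An unadjusted p under 0.05 was seen for 1, against 7.14% of all genes tested. That 1 was SNAI2, which encodes SLUG, a repressor of BBC3 in blood progenitors of the mouse. SNAI2 had 26 and 20 counts in ETV5_OE, against 79 and 60 counts in Control, or 1.17 and 0.835 CPM in ETV5_OE and 2.58 and 2.86 CPM in Control. Each ETV5_OE library was lower, but the gene is scarce and did not pass (log2 fold change -1.44, SE 0.45, edgeR unadjusted p = 0.0127, adjusted p = 0.449). IRF1 was at 0.53 (SE 0.25) and FOXO1 at -0.38 (SE 0.21).

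Of 14 kinases and ubiquitin enzymes that act on these proteins, none was called by edgeR or DESeq2, and the median was 0.04. There was 1, PIM3, at an unadjusted p under 0.05, against 7.14% of all genes tested. The survival kinase PIM3, which phosphorylates BAD, had 67.1 and 64.1 CPM in ETV5_OE, against 52.0 and 43.9 CPM in Control (log2 fold change 0.45, SE 0.15, edgeR adjusted p = 0.511). AKT1, another BAD kinase, was at 0.18 (SE 0.13) and MAPK3 (ERK1) at 0.23 (SE 0.18).

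**Figure D4:**
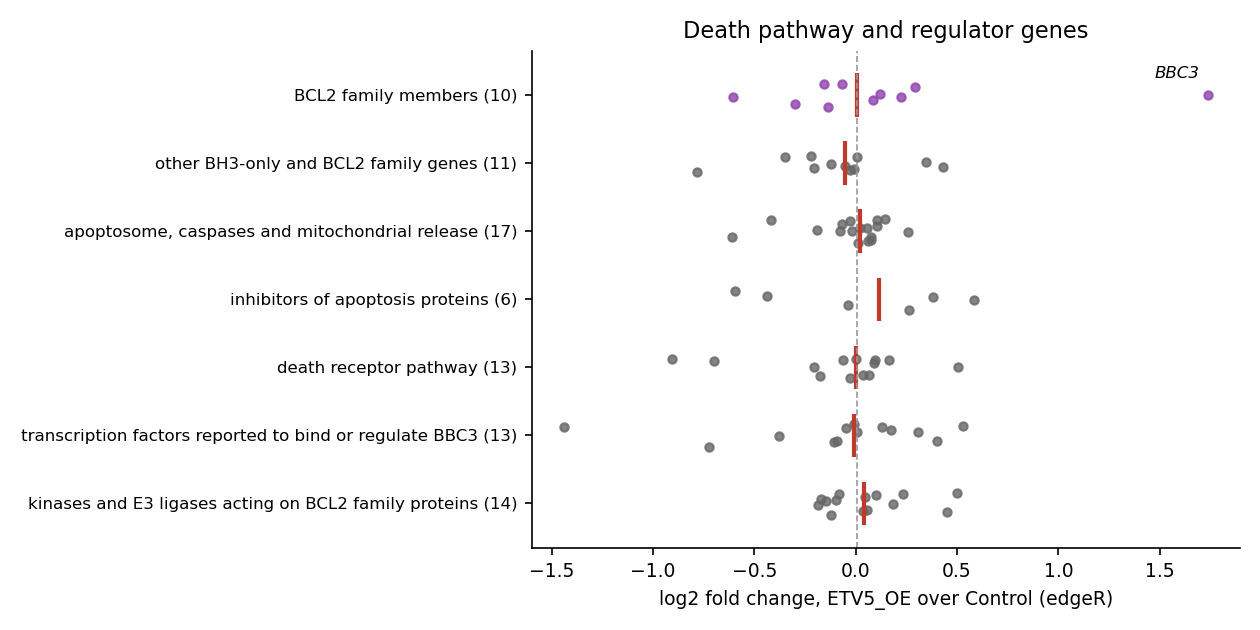
log2 fold change of ETV5_OE over Control for the BCL2 family members (purple) and for tested genes of 6 lists (grey), 1 point per gene, with list medians in red and the median of all genes tested as a dashed line. List medians lie between -0.05 and 0.11, and BBC3 is the point furthest to the right.

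The genes whose profile over the 4 libraries was most like that of BBC3 were sought by the Euclidean distance between centred log2 CPM values. The search covered 10870 genes with a mean of at least 5 CPM. Pseudogenes and genes with LOC, antisense, LINC or clone names were left out. The nearest was IFI27L2 (distance 0.33), at 12.5 and 9.98 CPM in ETV5_OE and 4.44 and 3.24 CPM in Control. It was followed by FCGBP (0.35), TM4SF1 (0.35), PLA2G2F (0.39) and SMIM14 (0.39). FCGBP, a mucus-associated protein of secretory epithelia, had 79.0 and 89.7 CPM in ETV5_OE and 22.0 and 19.9 CPM in Control. The measure rests on 4 libraries and on the same contrast that chose BBC3, so it only describes which genes had a difference of like size.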

How the data were processed

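Per the labels' protocols, total RNA was TRIzol-extracted, prepared with a TruSeq kit and read as paired ends. The submitters' processing notes name hg38, HISAT2, StringTie and Trimmomatic, while versions and strand setting are not given in the sources used here. The authors deposited raw read counts and FPKM values per gene, per the file headers. The deposited group means are log2 values that equalled quantile-normalized log2(FPKM + 1) within 0.000508, the deposited fold is a signed linear ratio, and the deposited p-values are unadjusted. The table lists genes with 1 or more reads in each library, and other genes are not analysed here.

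Counts were tested in R 4.3.3 with edgeR 4.0.16: default expression filter (minimum count 10), TMM scaling and a robust quasi-likelihood F test over all 16194 genes, with Benjamini-Hochberg adjusted p under 0.05 called. The procedure was tested on simulated data. SE and 95% intervals come from the F statistic. CPM uses TMM library sizes. Of 16194 genes tested, 65 were called, 41 higher and 24 lower. RefSeq coordinates (GRCh38.p14) matched 17561 genes by ID.

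Alternatives were RLE and upper-quartile scaling, no filter, a filter of CPM 1 in 2 libraries, no robust estimation, DESeq2 1.42.0, limma 3.58.1 (voom, and log2 FPKM with pseudocounts 1 and 0.1, genes at FPKM 1 in 2 libraries), the replicate number as a block, and each library left out. The text names all members, up to 3 genes with the smallest p in each list plus any called, the nearest listed genes, and the 5 profiles most like BBC3. Exceptions are marked. Stromal markers are given as a sum. Members and lists were chosen with earlier results of these data known. Results for some genes and 1 list are not reported here.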

Additional observations from a re-analysis of the deposited data

How the results depend on the processing

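The count of members called, 1 (BBC3) with the main settings, was 0 without robust estimation, with limma-voom and with either FPKM setting, and ranged from 0 to 1 when a library was left out. It was 0 without either ETV5_OE library. The count over all genes, 65, was 22 without robust estimation, 38 with limma-voom, 13 and 11 when limma was run on FPKM with pseudocounts 1 and 0.1, and 223 with DESeq2 (119 higher and 104 lower). It ranged from 0 to 238 when a library was left out: 0 without either ETV5_OE library (689 and 931 at an unadjusted p under 0.05), 238 without Control replicate 1 and 137 without Control replicate 2. With a library left out, the lone sample is assumed to vary like the other group. The cause of these shifts was not tested.

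The other 9 members were called under none of the 14 alternatives, and their smallest adjusted p was 0.572. Signs turned for 3 of them in 1 setting each. With single libraries left out, BID ranged from -0.548 to 0.281, PMAIP1 from -0.466 to 0.241 and BAD from -0.0467 to 0.224, with the turned sign without ETV5_OE replicate 1 for BID and without Control replicate 1 for PMAIP1 and BAD. Among luminal markers, KLK2 was called lower without Control replicate 2, and 3 markers, KLK3 among them, with DESeq2. The replicate numbers did not pair the libraries (correlation of deviations 0.0187). The replicate block gave 55 calls over all genes and 1 among the members, with a BBC3 log2 fold change of 1.75.

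With 2 libraries a group, the 95% intervals of the 9 uncalled members differ in width. That of BCL2 runs from 0.438-fold to 0.984-fold, that of BAK1 from 0.860-fold to 1.74-fold and that of MCL1 from 0.734-fold to 1.12-fold. These intervals are set for each gene alone and are not adjusted for the number of genes tested. That of BCL2 leaves out equal levels, yet BCL2 did not pass after adjustment (edgeR adjusted p = 0.683). Its lower level is thus not established. Differences inside the interval of a gene cannot be resolved here.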
